A study of Mus musculus with 2 samples.

Results

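This account covers 10 mouse genes that act next to the small GTPase Rac: the p21-activated kinase genes Pak1, Pak2, Pak3 and Pak4, the scaffold genes Iqgap1 and Iqgap2, the membrane-bending adaptor gene Baiap2 (also called IRSp53), and the Slit-Robo GTPase-activating protein genes Srgap1, Srgap2 and Srgap3. They were chosen by symbol from the 18032 genes of the deposited expression table, and all 10 were found. Polyadenylated RNA was sequenced from 2 states of mouse pluripotent cells, with 1 library each. The mESC library came from wild-type ES-E14TG2a cells, an embryonic stem cell line in wide use, held in the naive ground state in serum-free N2B27 with LIF at 100 units/ml, the inhibitor PD0325901 at 1 µM, which blocks ERK signalling, and the GSK3 inhibitor CHIR99021 at 3 µM. The cEpiSC library came from wild-type cells converted in vitro to primed, epiblast-like cells: 24 h after plating on fibronectin the medium was changed to N2B27 with activin A at 20 ng/ml and FGF2 at 12 ng/ml, and the cells stayed there for 2 days. The state, the medium and the fibronectin coating changed together and cannot be told apart, and both libraries derive from 1 cell line.

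Rac cycles between an inactive form and an active, GTP-bound form, and the active form acts through proteins that bind it. The kinases Pak1, Pak2 and Pak3 are released from self-inhibition by active Rac or Cdc42, and PAK kinases phosphorylate regulators of actin and myosin. IQGAP proteins crosslink actin filaments and bind E-cadherin and beta-catenin at cell contacts, IRSp53 links Rac to the WAVE proteins that start branched actin, and srGAPs bend membranes and switch Rac or Cdc42 off. Epithelial contacts and protrusions depend on this machinery, and the series title places Rac1, cadherins and F-actin at the centre of the ground state.

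The Pak members share a short binding element for active Rac and Cdc42, the CRIB motif, and its coding bases are shown because the 4 genes are read as separate transcripts below. Each stretch was located by translating the longest protein-coding GENCODE vM21 transcript, runs 5′ to 3′ on the coding strand, and has in capitals the 27 of 48 bases that are the same in all 4 genes.
Pak1: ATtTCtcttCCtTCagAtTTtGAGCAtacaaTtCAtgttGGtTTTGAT
Pak2: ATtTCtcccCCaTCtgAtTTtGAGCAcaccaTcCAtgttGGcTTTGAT
Pak3: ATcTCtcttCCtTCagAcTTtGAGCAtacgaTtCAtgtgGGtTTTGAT
Pak4: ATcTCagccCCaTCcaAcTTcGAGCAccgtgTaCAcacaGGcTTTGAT
In GRCm38 the stretches lie at chr7:97865504-97865551 (plus strand, exon 3 of 15, Pak1), chr16:32044502-32044549 (minus strand, exon 3 of 15, Pak2), chrX:143709680-143709727 (plus strand, exon 6 of 19, Pak3) and chr7:28568160-28568207 (minus strand, exon 3 of 10, Pak4), and all are exonic and coding. Pak1 and Pak3 were the closest pair with 44 identical bases (91.7%), and Pak1 and Pak4 the most distant with 27 (56.2%).

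The members could be counted apart from one another. Every one of the 10 held whole-number counts in both libraries, within 0.005 of a whole number, whereas 11.3% of all listed genes in mESC and 11.9% in cEpiSC did not. Over the longest coding transcript of each member, no window of 100 bases occurred in a transcript of another gene, except for 0.0911% of the windows of Srgap1, which the GENCODE entry Gm48804 on the same strand also holds. Exons of other genes covered at most 1.52% of a member's exonic bases: 150 bases of Srgap3 and 145 of Iqgap1 lie opposite the non-coding genes Gm44081 and Gm44649, and 39 bases of Pak4 are shared with Samd4b on its own strand. The libraries mark strand, and no source used here says if the authors' counting took it into account.

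Most marker genes differed in the direction of the labels, and naive transcripts remained in cEpiSC. Of 8 naive genes 6 were at least 2-fold lower in cEpiSC, and 7 of 8 genes of primed or formative cells were higher by that much, while the 4 genes of both states lay within 2-fold, Pou5f1 (0.13 on the log2 scale) and Sox2 (0.26) above 0 and Nanog (-0.92) and Sall4 (-0.76) below it. The 8 naive genes summed to 1902 TPM in mESC and still to 674 TPM in cEpiSC. Zfp42 (-0.87, 282.47 TPM in cEpiSC) and Nr0b1 (-0.19, 34.5 TPM) were the naive genes within 2-fold. Cells that stayed naive and a lower level per cell cannot be told apart here. The libraries held 19843719 (mESC) and 19956733 (cEpiSC) estimated counts, of which the 10 members took 0.114% and 0.0829%. Markers of other cell types differed in both directions, and those given here were named after their values were seen. The 8 primitive endoderm genes summed to 33.9 TPM in mESC and 15.3 TPM in cEpiSC, of which Dab2 gave 24.55 and 6.53 TPM. Of the 5 tested, 2 were at least 2-fold lower and none higher, and the other 3 lay above 0 within 2-fold. Foxa2, not tested, had 1 count in mESC and 0 in cEpiSC. The 8 trophoblast genes summed to 13.6 and 11.6 TPM, of which Tfap2a gave 10.14 and 1.75 TPM, yet 3 of the 5 tested were higher (Hand1 with 3 and 38 counts, Gcm1 with 0 and 49, Ascl2 with 27 and 80) and 1 was lower. Plac1 (0 counts in mESC and 2 in cEpiSC) and Cdx2 (5 and 0) were too low to be tested. The 8 fibroblast genes summed to 8.25 and 11.9 TPM, with 2 of 4 tested higher and 1 lower. Among those not tested were Col3a1 (0 and 2 counts), Dcn (0 and 1) and Lum (2 and 0). The 7 neural genes analysed summed to 89.2 and 36.2 TPM, mostly Tubb3 (76.65 and 27.64 TPM), with 1 of 5 tested higher and 2 lower. Neurog2 (0 and 2 counts) and Dcx (0 in both libraries) were not tested. The part of such cells in the members' differences was not tested, and fewer cells of a type and less RNA per cell cannot be told apart in bulk RNA.

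Per length, the members spanned a wide range. Levels are compared between genes in TPM, a unit that corrects for transcript length. In mESC the order from the top was Iqgap1 (136.99 TPM), Pak4 (104.55), Pak2 (56.65), Pak1 (30.43), Srgap2 (25.94), Baiap2 (17.43), Iqgap2 (14.46), Srgap3 (7.21), Srgap1 (4.35) and Pak3 (0.14). The order in cEpiSC was the same except that Pak1 (32.97 TPM) stood above Pak2 (29.82 TPM). Iqgap1 exceeded 92.3% of the genes detected in mESC and 88.8% of those in cEpiSC, and Pak3 exceeded 9.29% and 14.3%. The 10 members summed to 398 TPM in mESC and 265 TPM in cEpiSC, which was 66.5% of the mESC sum.

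**Figure D1:**
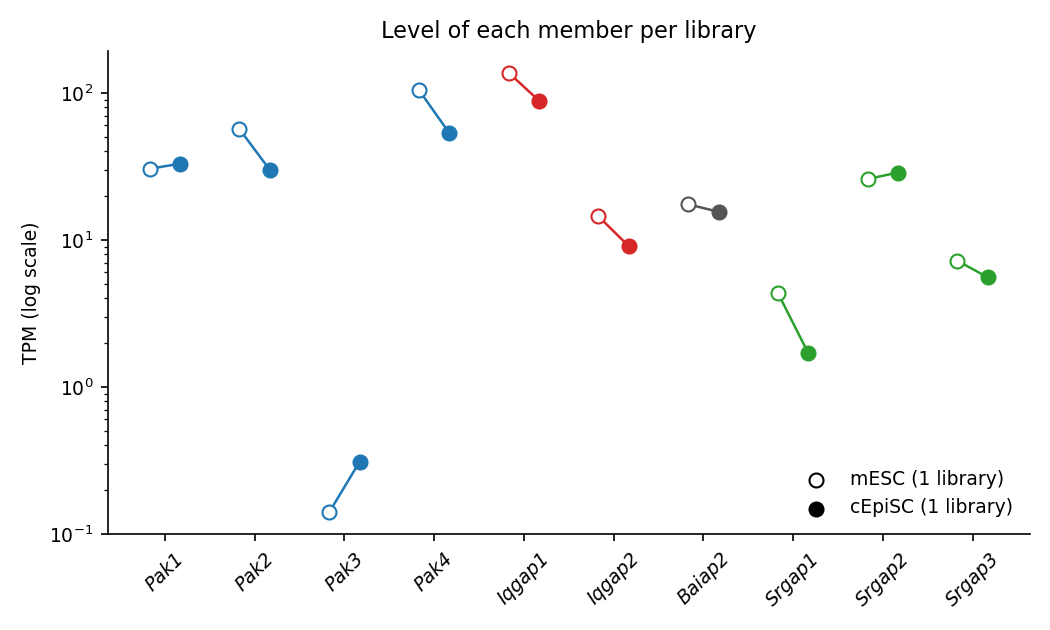
TPM on a log axis for each member, open circles for the mESC library and filled circles for the cEpiSC library, coloured by family and joined per gene. Iqgap1 is highest in both libraries, Pak3 is near the bottom at 0.14 and 0.31 TPM, and the lines of Pak2, Pak4, Iqgap1, Iqgap2 and Srgap1 slope down to cEpiSC.

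Between the states, most members were lower in cEpiSC, and 1 of the 10 passed 2-fold. Differences are log2 ratios of cEpiSC over mESC on counts scaled between libraries with TMM, computed with a prior count of 2 that damps small counts, followed in brackets by an exact 95% interval of the ratio without that prior count. The interval covers counting error only, and with 1 library per state no difference has a replicate check, so a gene is called by size alone and no p-value is given. Srgap1 was called lower, and no member was called higher. Of all 13243 tested genes, 9.25% were at least 2-fold lower and 13.6% at least 2-fold higher, so 1 lower member of 10 is near the background share. At 1.5-fold, a threshold added after the values were seen, 4 members were lower (Srgap1, Pak4, Pak2 and Iqgap1) and 1 was higher (Pak3), against 18.9% and 20.7% of tested genes. Iqgap1 sat at that threshold, and the lower count was 3 with DESeq2 size factors, library totals, FPKM or length centring and 5 with TPM. Of the 10 members 7 lay below 0, where 51.2% of tested genes lay, and the median ratio of the members was -0.50 beside -0.02 for all tested genes.

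Transcript length moved with these ratios. Among the 10 bins of tested genes by length, the median ratio was 0.17 in the shortest bin and -0.32 in the longest, where 15.8% of genes were at least 2-fold lower and 32.2% at least 1.5-fold lower. Pak3, Iqgap1, Srgap1, Srgap2 and Srgap3 belong to that longest bin, and Pak2 and Iqgap2 to the next, with a median of -0.14. With each ratio centred on the median of its bin, the members' median was -0.23, and 3 of them were at least 1.5-fold lower beside 17.1% of tested genes. The part of length in the members' ratios was not tested beyond this centring.

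**Figure D2:**
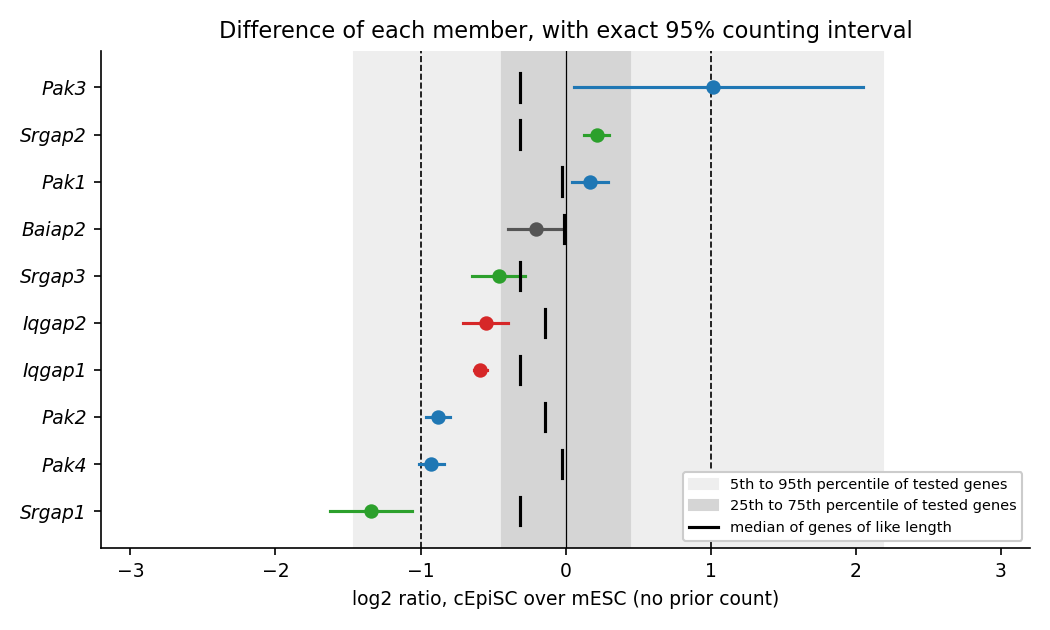
Log2 ratio of cEpiSC over mESC for each member without a prior count (points), with the exact 95% counting interval (bars), the 5th to 95th and 25th to 75th percentile of all tested genes with a prior count of 2 (light and dark bands), the median of tested genes in the same length bin (black ticks) and 2-fold (dashed lines). Srgap1 lies beyond 2-fold with its whole interval, Pak4 and Pak2 lie just short of it, and the Pak3 interval runs from 0.06 to 2.05.

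The kinases were not lower together: Pak2 and Pak4 were, and Pak1 was not. Pak4 (Entrez 70584, GRCm38.p6 chromosome 7, 28558819 to 28598184), a kinase of the second PAK group that acts mainly with Cdc42 and on cell contacts, had 3201 estimated counts in mESC and 1783 in cEpiSC. That was 1.90-fold lower, a log2 ratio of -0.92 (-1.01 to -0.84), lower than the ratio of all but 10.5% of tested genes. Pak2 (Entrez 224105, chromosome 16, 32016290 to 32079342), the widely expressed kinase of the first group, went from 3454 to 1987 counts, 1.84-fold lower at -0.88 (-0.96 to -0.80). The pair thus stood close together, and the ratio of Pak2 to Pak4 shifted by 0.05 (-0.07 to 0.16) on the log2 scale. This interval covers counting error only and sets no bound on a difference between cultures.

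Pak1 (Entrez 18479, chromosome 7, 97788541 to 97912381), the founding member of the first group, had 973 counts in mESC and 1154 in cEpiSC, a log2 ratio of 0.17 (0.04 to 0.29). Pak1 therefore moved away from Pak2 and Pak4. Relative to Pak2 it was 2.06-fold higher in cEpiSC (log2 1.04, 0.90 to 1.19), and relative to Pak4 2.13-fold higher (1.09, 0.94 to 1.24). Relative to Pak3 its shift was -0.85 (-1.89 to 0.12), an interval that includes 0. These comparisons set 2 genes against each other within the same libraries, so the scaling between libraries does not enter. Pak3 (Entrez 18481, chromosome X, 143518366 to 143797796), a kinase known mainly from neurons, stood at 14 (mESC) and 30 (cEpiSC) counts. At this depth its ratio of 0.93 (0.06 to 2.05) is loosely bounded, and its level was low in both libraries, at 0.14 and 0.31 TPM.

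The make-up of the Pak transcripts changed with these differences. Pak4 held 54.5% of the summed TPM of the 4 genes in mESC and 45.7% in cEpiSC, Pak2 held 29.5% and 25.7%, and Pak1 went from 15.9% to 28.4%. Pak3 held 0.0730% and 0.267%, on 14 and 30 counts. The sum of the 4 was 191.77 TPM in mESC and 116.14 TPM in cEpiSC. In counts the sum was 7642 and 4954, 1.63-fold lower at a log2 ratio of -0.71 (-0.76 to -0.65). Pak4 thus led in both libraries, and Pak1 passed Pak2.

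**Figure D3:**
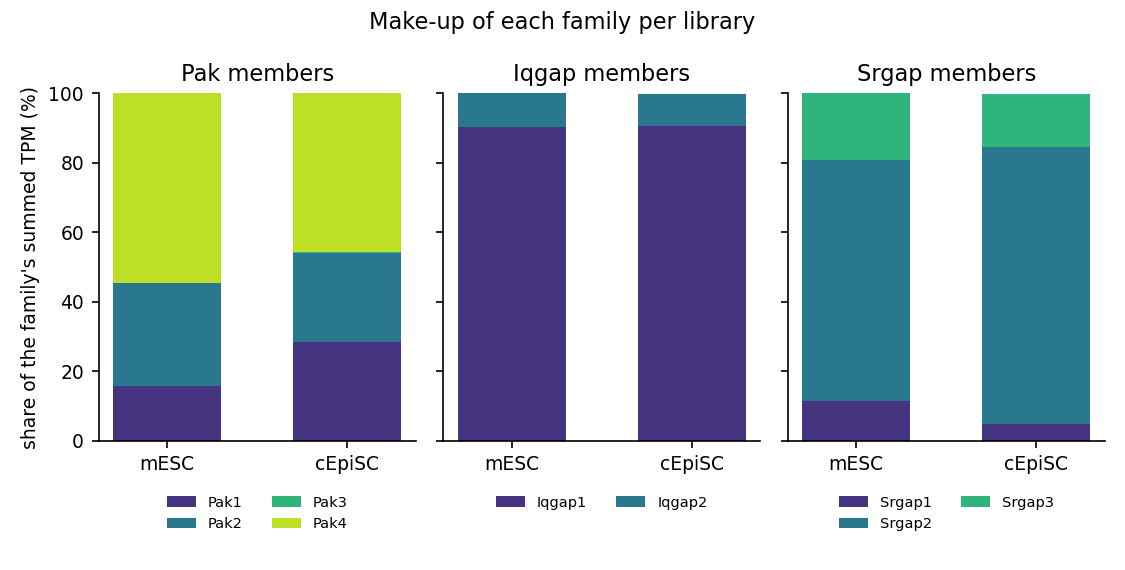
Share of each gene in the summed TPM of its family (stacked bars, percent) in the mESC and the cEpiSC library, for the Pak, Iqgap and Srgap members. The Pak1 part widens from 15.9% to 28.4% and the Srgap1 part narrows from 11.6% to 4.70%, while the Iqgap1 part is 90.5% and 90.7%.

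The sequence before the start site is shown for Pak1 and Pak4, chosen as Pak genes on opposite sides of 0. A RefSeq start-site entry at the gene's edge was at hand for both. Pak3, also above 0, had start-site entries that are not shown, and Pak2 had none. Each run is the 250 bases before the start, 5′ to 3′ on the gene's strand, from RefSeq on GRCm38.p6, with capitals for the GC box (GGGCGG) and the cyclic AMP response element (TGACGTCA) on either strand.
Pak1 (chr7:97788291-97788540, plus strand): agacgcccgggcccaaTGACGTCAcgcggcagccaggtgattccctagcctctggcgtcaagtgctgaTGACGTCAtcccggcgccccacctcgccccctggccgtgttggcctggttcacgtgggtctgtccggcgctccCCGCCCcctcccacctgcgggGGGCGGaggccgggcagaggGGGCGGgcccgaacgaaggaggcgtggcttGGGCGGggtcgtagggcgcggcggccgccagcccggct
Pak4 (chr7:28598185-28598434, minus strand): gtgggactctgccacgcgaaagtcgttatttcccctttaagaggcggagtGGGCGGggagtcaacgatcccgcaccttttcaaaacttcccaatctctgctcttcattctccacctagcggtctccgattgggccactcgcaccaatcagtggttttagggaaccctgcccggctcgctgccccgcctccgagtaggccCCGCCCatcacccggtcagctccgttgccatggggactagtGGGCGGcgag
The Pak1 window held 2 cyclic AMP response elements and 4 GC boxes, and the Pak4 window held 3 GC boxes and no cyclic AMP response element. Of 32851 such windows in the table, 1.55% held at least 1 cyclic AMP response element and 32.7% at least 1 GC box. G and C made up 74.8% of the Pak1 window and 61.2% of the Pak4 window, beside a median of 52.4% over all windows. The shares over all windows are thus no matched background. The Pak1 window also held 1 E-box (CACGTG), found in 6.02% of windows. The other Pak1 start-site window (chr7:97842689-97842938) held 3 GC boxes and neither a cyclic AMP response element nor an E-box. None of the 12 windows listed for 9 members held a TCF/LEF site (ATCAAAG, in 3.21% of all windows), a STAT site (TTCNNNGAA, 7.02%) or an ETS site (CCGGAAG, 6.91%), each searched on both strands. A match describes letters only and is no measured binding site.

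Both Iqgap genes were lower by a like amount. Iqgap1 (Entrez 29875, chromosome 7, 80711583 to 80815549), the scaffold found in most cell types, went from 10729 to 7550 counts, 1.5-fold lower at -0.59 (-0.63 to -0.55). Iqgap2 (Entrez 544963, chromosome 13, 95627177 to 95892280), best known from liver, had 787 and 568 counts, 1.47-fold lower at -0.55 (-0.71 to -0.39). The ratio of Iqgap1 to Iqgap2 shifted by -0.04 (-0.20 to 0.13), and Iqgap1 held 90.5% of their summed TPM in mESC and 90.7% in cEpiSC. Both are long transcripts, and centred on their length bins the ratios were -0.27 (Iqgap1) and -0.41 (Iqgap2).

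Baiap2 was nearly level. This I-BAR adaptor gene (Entrez 108100, chromosome 11, 119939916 to 120006782) had 452 counts in mESC and 415 in cEpiSC, 17.43 and 15.51 TPM. Its log2 ratio of -0.20 (-0.40 to -0.01) was the smallest below 0 among the members.

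The 3 srGAP genes parted from one another, with a sum that stayed level. Srgap1 (Entrez 117600, chromosome 10, 121780991 to 122047911), whose product acts on Cdc42 downstream of Slit and Robo, had 359 counts in mESC and 150 in cEpiSC. It was 2.53-fold lower at -1.33 (-1.62 to -1.06), below all but 5.89% of tested genes. With the deposited TPM or FPKM and a pseudocount of 1, the log2 ratio of Srgap1 was -0.99 and -0.75. That pseudocount shrinks the ratio of genes at so low a level. The deposited values themselves, 4.35 and 1.69 TPM and 2.37 and 1 FPKM (mESC and cEpiSC), were more than 2-fold apart. Centred on length the ratio was -1.01. Srgap3 (Entrez 259302, chromosome 6, 112717971 to 112947505), also called WRP for its binding to WAVE, stood at 571 and 439 counts, a log2 ratio of -0.46 (-0.64 to -0.28). Srgap2 (Entrez 14270, chromosome 1, 131285251 to 131527531), which shapes protrusions in neurons, went the other way with 2012 and 2469 counts at 0.21 (0.13 to 0.30).

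The differences within this family exceeded counting error for each pair. Relative to Srgap2, Srgap1 was 2.94-fold lower in cEpiSC (log2 -1.55, -1.85 to -1.26), and relative to Srgap3 it was 1.84-fold lower (-0.88, -1.22 to -0.54). Relative to Srgap3, Srgap2 was 1.60-fold higher (0.67, 0.47 to 0.88). Srgap2 held 69.2% of the family's TPM in mESC and 79.8% in cEpiSC, and Srgap1 went from 11.6% to 4.70%. The summed counts were 2942 and 3058, a log2 ratio of -0.02 (-0.10 to 0.05), so the lower Srgap1 and Srgap3 were offset by Srgap2. Of the 10 pairs compared within the 3 families, the interval left out 0 in 7.

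The transcript length implied by the deposited values differed between libraries for some members. Dividing counts by FPKM gives the effective length the authors' estimate used, which moves when reads are assigned to other isoforms. Among 9931 tested genes with at least 100 counts in each library, the 5th and 95th percentiles of the change from mESC to cEpiSC were -3.70% and 2.62%. Srgap3 changed by -8.64% (7341 to 6707 bases), Iqgap2 by 5.83% (5046 to 5340 bases) and Baiap2 by -5.62% (2405 to 2270 bases), all outside that range. Pak1, Pak2, Pak4, Iqgap1, Srgap1 and Srgap2 lay inside it, between -1.54% and 1.5%, and the value for Pak3 rests on an FPKM of 0.08. GENCODE vM21 lists 5 transcripts of Srgap3, 9 of Baiap2 and 1 of Iqgap2, while the authors' own annotation is not stated in those sources. Which isoforms changed was not analysed here.

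Under other settings every member kept its direction in all 9 alternatives that gave it a value, and none crossed 0. The settings without a filter and with 5 CPM change only which genes are tested, so they repeat each member's ratio. Pak4 ranged from -0.97 to -0.84, Pak2 from -0.90 to -0.73, Iqgap1 from -0.63 to -0.27 and Srgap3 from -0.46 to -0.14. Iqgap2 ranged from -0.62 to -0.41 and Srgap1 from -1.34 to -0.75. Baiap2 ranged from -0.20 to -0.04, and so barely kept its direction with FPKM. Pak1 ranged from 0.11 to 0.24 and Srgap2 from 0.14 to 0.53. Pak3 ran from 0.14 to 1.24 and passed 2-fold only when centred on length.

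**Figure D4:**
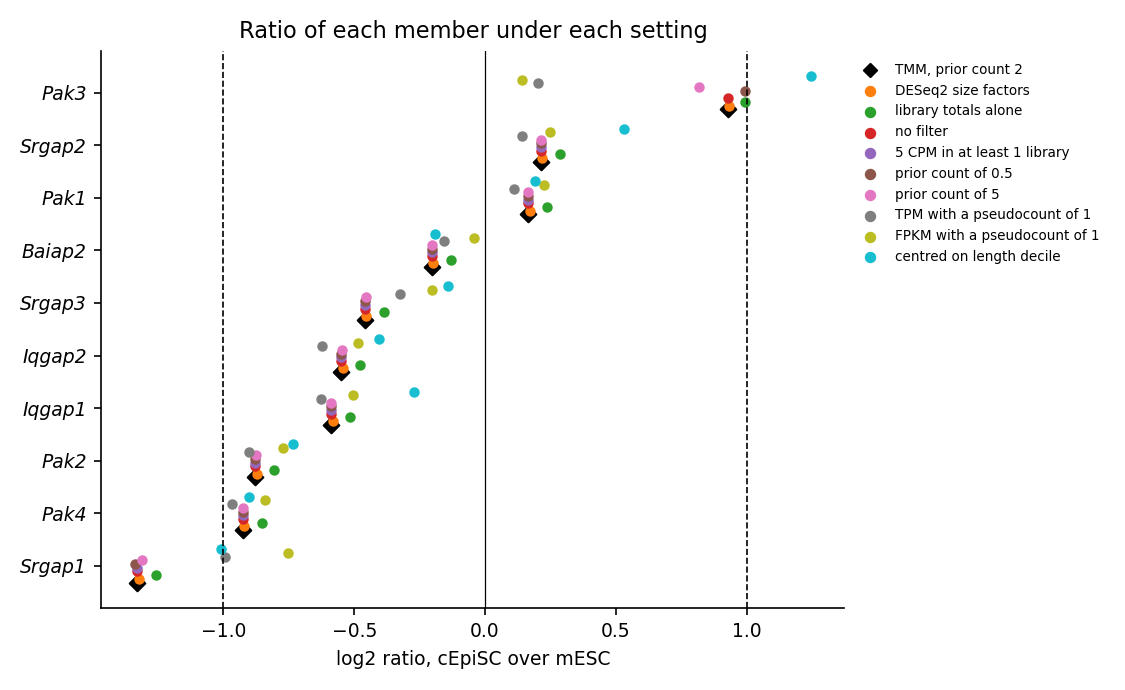
Log2 ratio of each member under the TMM scaling with a prior count of 2 (black diamonds) and under each alternative setting (coloured circles), with 2-fold as dashed lines. No member changes sides of 0. Srgap1 comes inside 2-fold with TPM (-0.99) and FPKM (-0.75), each with a pseudocount of 1. Pak3 goes beyond 2-fold when centred on length (1.24).

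Other members of the same families split as well. Of 8 such genes 6 were tested, of which 1 was at least 2-fold higher (13.6% of all tested genes) and none lower (9.25%). That one was Pak6, a kinase of the second group, with 47 and 121 counts, a ratio of 1.25 (0.79 to 1.80) and levels of 1.17 and 2.87 TPM, but with TPM (0.83) or FPKM (0.73) and a pseudocount of 1 it lay inside 2-fold. Named after its values were seen, Iqgap3, the IQGAP of dividing cells, was 1.53-fold lower with 2209 and 1530 counts (-0.61, -0.71 to -0.52). All 3 IQGAP genes thus stood near 1.5-fold lower, and 18.9% of all tested genes were at least 1.5-fold lower. In the longest bin, which holds Iqgap1, 32.2% were, and in the next, with Iqgap2 and Iqgap3, 23.6%. Centred on length the ratios were -0.27 (Iqgap1), -0.41 (Iqgap2) and -0.47 (Iqgap3). Pak5 (listed as Pak7) had 2 and 3 counts and was not tested.

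Most GTPases that these proteins serve lay within 2-fold, as did 10222 of all 13243 tested genes. Of 9 genes of the Rac and Cdc42 group 8 were tested, at a median ratio of 0.05. Of these, 1 was lower by 2-fold or more (9.25% of all tested genes) and none higher (13.6%). The lower one was Rac2, the Rac of blood cells, with 246 counts in mESC and 105 in cEpiSC (-1.29, -1.65 to -0.97). With FPKM and a pseudocount of 1 it was -0.90. Rac1, named after its values were seen, had 4375 and 4429 counts at 185.88 and 172.36 TPM, above every member in both libraries.

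Adaptors and substrates of the kinases mostly lay below 0, where 51.2% of all tested genes lay. Staying within 2-fold was common too, at 10222 of the 13243 tested genes. Of 10 Pak adaptors and phosphatases none was called in either direction, 7 lay below 0 and the median was -0.30. Named after their values were seen, Git2, a relative of Git1, stood at the 2-fold line with 1656 and 877 counts and was the 1 gene of this list called lower with TPM, and the phosphatase gene Ppm1e (13 and 27 counts, 0.88) passed 2-fold when centred on length. Pak1ip1, a Pak1-binding inhibitor, had 1631 and 1583 counts (-0.12, -0.22 to -0.02), and Git1, which with the PIX exchange factors brings PAK to adhesions, had 3195 and 2391 (-0.50, -0.58 to -0.42). Of 12 Pak substrates 11 were tested, none was called, 8 lay below 0 and the median was -0.28. Cfl1, the actin-severing protein cofilin reached through LIM kinases, had 18528 and 16190 counts (-0.28, -0.31 to -0.24), and Stmn1, a microtubule regulator, had 3451 and 5143 (0.49, 0.43 to 0.56).

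Binding partners of the scaffolds differed by less than 2-fold too. So did 10222 of the 13243 tested genes, and 51.2% of all tested genes lay below 0. Of 10 IQGAP partners none was called, and 7 lay below 0 at a median of -0.27, although Cd44, named after its values were seen, at 14 and 30 counts passed 2-fold when centred on length (1.02). Among them E-cadherin (Cdh1) had 26723 and 16016 counts (-0.82, -0.85 to -0.79) and the calmodulin gene Calm2 had 5800 and 6067 (-0.02, -0.07 to 0.04). Of 10 Baiap2 partners 9 were tested and none was called, at a median of 0.29. Vasp, an actin elongation factor, lay just inside 2-fold with 5171 and 2747 counts (-0.99, -1.06 to -0.93), and its relative Enah had 3867 and 5006 (0.29, 0.23 to 0.35). Vasp passed 2-fold with TPM (-1.03) and when centred on length (-1.02), where Shank3, named in the same way, also passed it (1.09).

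Among the 8 lists of related genes, the Slit and Robo genes, for which the srGAPs are named, held the widest differences. Of 7 genes 6 were tested, 3 were higher (13.6% of all tested genes) and 1 lower (9.25%), at a median of 1.64. The higher count was 1 with the filter at 5 CPM. It was 2 with TPM and 1 with FPKM, each with a pseudocount of 1. The ligand gene Slit2 went from 704 to 16 counts (-5.37, -6.36 to -4.83), while the receptor genes Robo4, known from blood vessels, and Robo3 went from 12 to 402 (4.78, 4.16 to 5.95) and from 5 to 58 (3.03, 2.15 to 5.13). With TPM and FPKM, each with a pseudocount of 1, Slit2 was -2.85 and -2.19, Robo4 3.12 and 2.64, and Robo3 1.12 and 0.80. The pseudocount shrinks the ratios of genes at such low levels. The deposited TPM were 7.29 (mESC) and 0.15 (cEpiSC) for Slit2, 0.36 and 10.86 for Robo4, and 0.12 and 1.44 for Robo3. The other higher gene was Slit1 (7 and 63 counts), and Robo1, named like Slit1 after its values were seen, had 517 and 286 counts (-0.93, -1.15 to -0.72).

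Of 19 other Rac effectors 2 were higher, 2 lower and 15 within 2-fold, with 13 below 0 and a median of -0.32. Over all tested genes 13.6% were higher, 9.25% lower and 51.2% below 0. The formin gene Fmnl1 had 489 and 84 counts (-2.59, -2.97 to -2.29) and the citron kinase gene Cit 1732 and 758 (-1.27, -1.40 to -1.15), while the plexin gene Plxnb1 had 149 and 353 (1.15, 0.88 to 1.45). Centred on length Cit was -0.95, inside 2-fold. Plxnb1 was inside it too at 0.81 with TPM and 0.75 with FPKM, each with a pseudocount of 1. No gene of this list was then called higher with either unit, although the deposited levels of Plxnb1 were 1.86 (mESC) and 4.01 (cEpiSC) TPM. The median of -0.50 over the 10 members lay below the medians of these 8 lists, but centred on length it was -0.23, above those of the Pak substrates (-0.43), the other Rac effectors (-0.31) and the Pak adaptors (-0.27). This order was not tested.

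**Figure D5:**
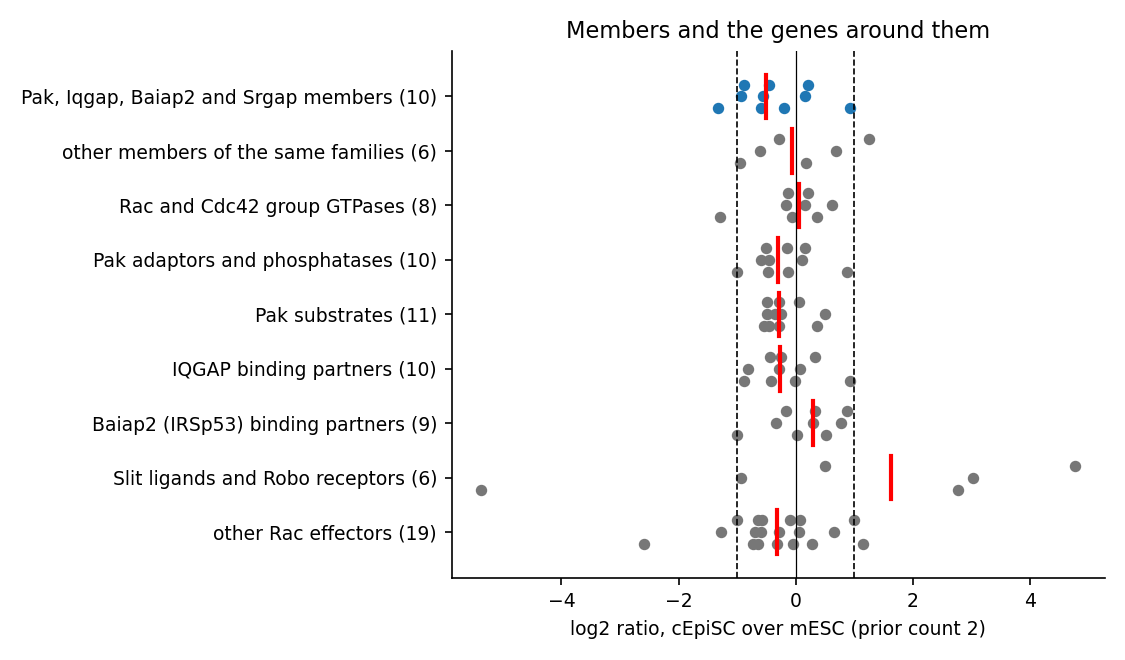
Log2 ratio of cEpiSC over mESC for each tested gene (points, spread vertically for legibility) of the 10 members (blue) and of 8 lists of related genes (grey), with the median of each list (red) and 2-fold (dashed lines). The number in brackets is the number of tested genes, and the Slit and Robo list spans -5.37 to 4.78.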

How the data were processed

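Per the labels' protocols, poly(A) RNA was selected and made into strand-marked, PCR-amplified libraries, 1 per state. Per the submitters' processing notes, RSEM 1.3.1, HISAT2, Bowtie2 and DESeq2 1.34.0 were used with GRCm38.p6. Which tool did what, and with which annotation, is not given in the sources used here. This deposited table holds estimated counts per gene, not scaled, per the file headers and values. The TPM columns were deposited by the authors per kilobase and scaled to the same sum per library. The deposited FPKM columns scale fragments by transcript length and by library, per the file headers. The number of columns from other samples was 0.

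After rounding, TMM factors from edgeR 4.0.16 (R 4.3.3) were 0.975 (mESC) and 1.03 (cEpiSC). A gene was tested, by size alone, where either library reached 1 CPM. Ratio intervals are exact conditional 95% intervals (Clopper-Pearson), and the shift between 2 genes is an odds ratio with an exact conditional interval (scipy 1.17.1). Without molecular identifiers PCR copies cannot be told from molecules, so intervals cover only counting error. The scaling, size rule and ratio intervals were tested on simulated data. The simulated counts carried counting error alone, with as many genes set higher as lower. They held no spread between cultures and no trend with length, so the test does not cover those. Members, lists and thresholds were chosen with earlier results of these data known. Named genes are the members and, per list, up to 3 genes with the largest ratio past 2-fold, or the 2 most abundant where none passed. The values of 1 neural marker are not reported here. Coordinates are 1-based, from RefSeq on GRCm38.p6 joined by Entrez identifier. The alternatives were DESeq2 1.42.0 size factors, library totals, no filter, 5 CPM, prior counts of 0.5 and 5, TPM and FPKM with a pseudocount of 1, and centring on 10 bins of length.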

Additional observations from a re-analysis of the deposited data

How the results depend on the processing

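The count of members at least 2-fold lower stayed at 1 (Srgap1), except with TPM and with FPKM, each with a pseudocount of 1, where it was 0. The count of members at least 2-fold higher stayed at 0, except when centred on length, where it was 1 (Pak3). Pak3 had no value with the filter at 5 CPM. Of 89 other values of the members, 77 lay inside the counting interval of the value reported and 12 outside it. Those without a filter and with 5 CPM repeat the reported ratio, so they lie inside by construction. Of all tested genes, 1796 were higher and 1225 lower. The higher count was 2712 with no filter, 970 with the filter at 5 CPM, 1091 with TPM and 945 with FPKM, and the lower count was 680 with FPKM. No paired analysis was possible because each state has 1 library. Depth limits Pak3 most, at 14 and 30 counts. Leaving out a library was not possible either.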
